A study of Mus musculus with 10 samples.

Results

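A set of 10 enzymes of glutathione and antioxidant metabolism was followed by RNA-seq in proximal intestine of mice with and without *Zip14* (*Slc39a14*), a transporter of zinc and other metals. The 10 genes were *Gsta1*, *Gsta4*, *Gstm1*, *Gstm3*, *Gstp1*, *Gclc*, *Nqo1*, *Gpx2*, *Hmox1* and *Txnrd1*, taken by name from the 35275 gene IDs counted in each library. All 10 were among the 15610 genes tested. There were 5 WT and 5 KO libraries, each from 1 mouse, and the labels give proximal intestine and an age of 8 to 10 weeks for both groups and name no agent. The labels write only KO, the methods of the study describe a whole-body deletion with WT mice of the same strain from crosses of heterozygous parents, and the title of the series names a deletion in enterocytes. The counts do not tell which deletion the mice carried.

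Glutathione is the main small thiol of the cell. Glutamate-cysteine ligase, whose catalytic subunit is *Gclc*, makes the rate-limiting step of its synthesis, glutathione transferases couple it to electrophiles and reactive lipids, and glutathione peroxidases use it to reduce peroxides. Thioredoxin reductase keeps the parallel thioredoxin system reduced. Many of these genes are known targets of the transcription factor NRF2 (*Nfe2l2*), which KEAP1 holds back in unstressed cells, and in the small intestine glutathione transferases are abundant in absorptive enterocytes.

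The libraries held 16729787 to 20819678 counts in WT mice and 17118742 to 19414828 in KO mice. *Slc39a14* was lower in KO libraries, at 78.5 to 160 CPM (counts scaled by TMM to a common library size) against 191 to 357 in WT libraries, a change of -1.35 ± 0.22 on the log2 scale (SE, edgeR's quasi-likelihood test, Benjamini-Hochberg adjusted p = 0.00184). The labelled position did not match the markers of the KO libraries. The summed level of 9 markers of proximal small intestine was 8591 to 15640 CPM in WT libraries and 105 to 1417 in KO libraries, while that of 8 ileum markers was 700 to 1532 CPM in WT and 4127 to 11410 in KO. Of those tested 5 of 8 proximal markers were called lower and 6 of 8 ileum markers higher, and none of either list was at 0 in every library. The 11 enterocyte markers summed to 34980 to 48730 CPM in WT and 13610 to 31620 in KO, with 7 called lower, and 3 of the 11 are also in the proximal list. The 15 pan-epithelial markers summed to 15600 to 17980 CPM in WT and 18580 to 26480 in KO, and 10 smooth muscle markers to 1629 to 2674 and 3600 to 10600. Markers of colon (3 of 4 tested called higher and 1, *Slc26a3*, lower, 1260 to 2263 CPM in WT and 2462 to 6150 in KO, most of it the goblet cell mucin *Muc2* at 1038 to 2079 and 2280 to 5182), goblet cells (5 of 7 higher, 11240 to 16990 and 16890 to 24150) and enteric neurons and glia (6 of 6 higher, 9.12 to 19.2 and 21.9 to 73.8) moved as well. Of endothelium markers 2 of 4 were called lower (sums of 169 to 209 CPM in WT and 123 to 178 in KO). Of fibroblast markers 2 of 6 were called higher (sums of 791 to 1054 CPM in WT and 732 to 1450 in KO). The genotype and the place along the gut that the markers follow cannot be told apart in these samples. In bulk tissue fewer cells of a type cannot be told apart from less RNA per cell. The 4 Y-linked genes held 3 counts in all 10 libraries together and *Xist* 5485 to 9247 counts in each, while the methods name mice of both sexes.

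Of the 10 enzymes, 7 were lower in KO mice, 1 was higher and 2 did not pass the test. The 7 lower genes were 4 of the alpha and mu glutathione transferases (*Gsta1*, *Gsta4*, *Gstm1*, *Gstm3*), the pi transferase *Gstp1*, the quinone reductase *Nqo1* and the thioredoxin reductase *Txnrd1*. The higher gene was *Gpx2*, the glutathione peroxidase of the gastrointestinal epithelium. Neither *Gclc* nor the heme oxygenase *Hmox1* passed. Of all 15610 genes edgeR called 29.9% at an adjusted p under 0.05, with 13.9% of all genes lower and 16% of all genes higher in KO. In all, 3 enzymes (*Gsta1*, *Gstm1*, *Gstm3*) were lower by more than 2 on the log2 scale, which 1.53% of all genes were. In 6 enzymes every KO library was below every WT library, as in 10.8% of all genes, and in none was every KO library above every WT library, as in 10.2% of all genes. The median log2 fold change of the 10 enzymes was -0.89, and that of all genes tested was 0.03.

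**Figure D1:**
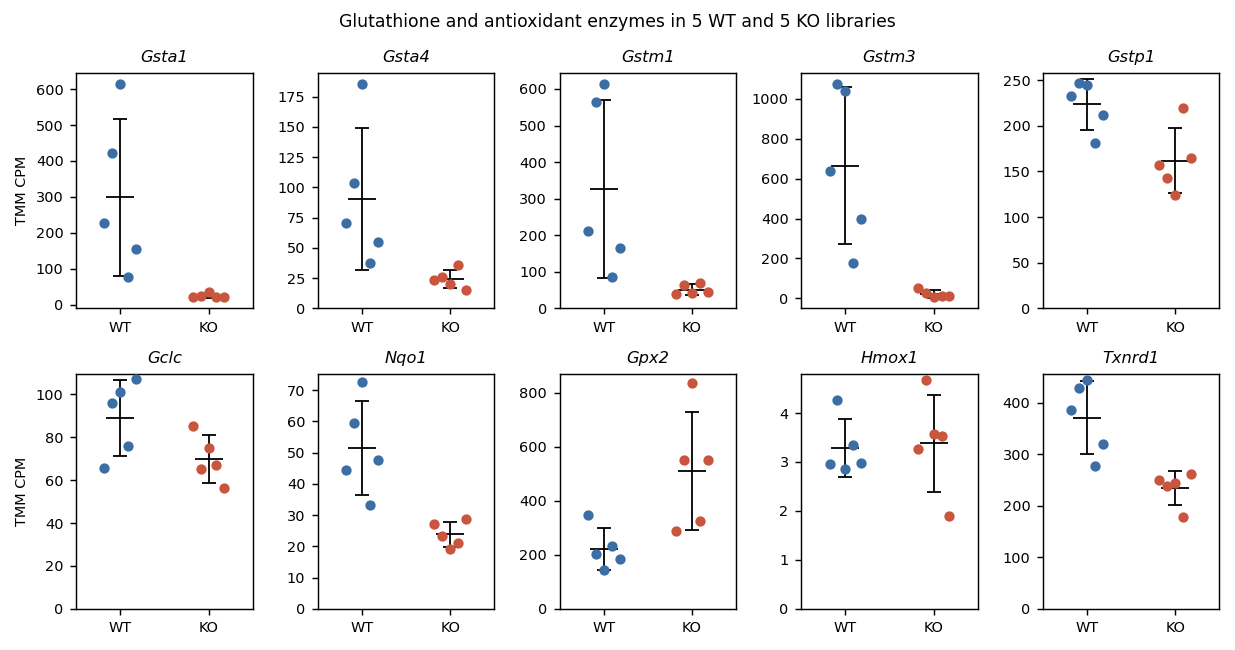
CPM after TMM scaling of each enzyme in 5 WT libraries (blue) and 5 KO libraries (red), with the mean and SD of each group as black lines; each panel has its own linear axis. The KO points of *Gsta1*, *Gsta4*, *Gstm1*, *Gstm3*, *Nqo1* and *Txnrd1* lie below all WT points, and those of *Gpx2* reach 836 CPM. The WT points of *Gsta1*, *Gsta4*, *Gstm1* and *Gstm3* spread widely, unlike those of *Gstp1*.

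*Gstm3*, a mu class transferase on chr3:107963696-107969283 (minus strand, GRCm38; ENSMUSG00000004038), showed the largest difference among the 10. WT replicates 1 to 5 held 636, 1074, 1038, 177.5 and 397 CPM. KO replicates 1 to 5 held 51.8, 27.2, 8.69, 11.1 and 9.55 CPM. The groups did not overlap, and WT replicate 4 was the WT library nearest to the KO range. The means were 664 ± 392 CPM in WT and 21.7 ± 18.5 CPM in KO (SD, n = 5 each), 30.7 times higher in WT. edgeR put KO minus WT at -4.94 ± 0.68 on the log2 scale (SE, adjusted p = 0.000844), and leaving out 1 library moved it between -5.56, without KO replicate 1, and -4.70, called each time.

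*Gsta1*, an alpha class transferase (ENSMUSG00000074183, chr9:78230656-78242684, plus strand), followed. Its WT libraries held 228, 424, 614.5, 75.9 and 154 CPM. Its KO libraries lay close together, at 20.9, 25.5, 34.0, 21.6 and 21.8 CPM. The WT libraries differed among themselves by 8.10 times, the KO libraries by 1.63 times, and the groups did not overlap. Mean levels were 299 ± 218.5 CPM in WT and 24.8 ± 5.47 CPM in KO (SD, n = 5 each), with a log2 change of -3.59 ± 0.50 (SE of edgeR's model, adjusted p = 0.00085).

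*Gstm1*, the neighbouring mu class gene (ENSMUSG00000058135, chr3:108012255-108017973, minus strand), held 211, 563, 614, 85.9 and 164.5 CPM in WT libraries. In KO libraries it held 38.6, 64.8, 42.2, 69.1 and 44.4 CPM. Again the groups did not overlap, with the same WT library nearest to the KO range. On the log2 scale KO minus WT was -2.66 ± 0.50 by edgeR (SE, adjusted p = 0.0036).

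*Gsta4*, an alpha class enzyme with high activity towards aldehydes from lipid peroxidation (ENSMUSG00000032348, chr9:78182774-78209349, plus strand), had the lowest WT level of these 4, also per kilobase of exon. It held 70.6, 104, 186, 37.8 and 54.7 CPM in WT libraries and 23.8, 25.9, 20.3, 35.9 and 15.1 CPM in KO libraries. The highest KO library, replicate 4, was just below the lowest WT library, also a replicate 4. This gave a log2 difference of -1.90 ± 0.40 (SE of edgeR's model, adjusted p = 0.00601).

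The WT libraries were ordered alike for these 4 genes, with replicates 2 and 3 at the top and replicates 5 and 4 at the bottom. Replicates 4 and 5 also had the lowest WT sums of proximal small intestine markers, at 8591 and 9652 CPM against 12430 to 15640 CPM. There *Apoa4* (3390 and 3865 against 5648 to 9063) and *Fabp1* (1190 and 1596 against 2492 to 3063) were lowest. *Lct*, of the same list, was instead highest there (3641 and 3783 against 3363 to 3533). Replicates 4 and 5 had the highest WT sums of ileum markers, at 1167 and 1532 CPM against 700 to 886 CPM. Most of that was *Cubn*, at 765 and 1100 CPM against 372 to 535. *Cubn* did not pass between the groups (log2 fold change -0.07, adjusted p = 0.884 by edgeR). Among KO libraries the proximal sum was highest in replicate 1, at 1417 CPM, which was also the highest KO library for *Gstm3* and the lowest for *Gsta1* and *Gstm1*. The part of the position in these levels was not tested.

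**Figure D2:**
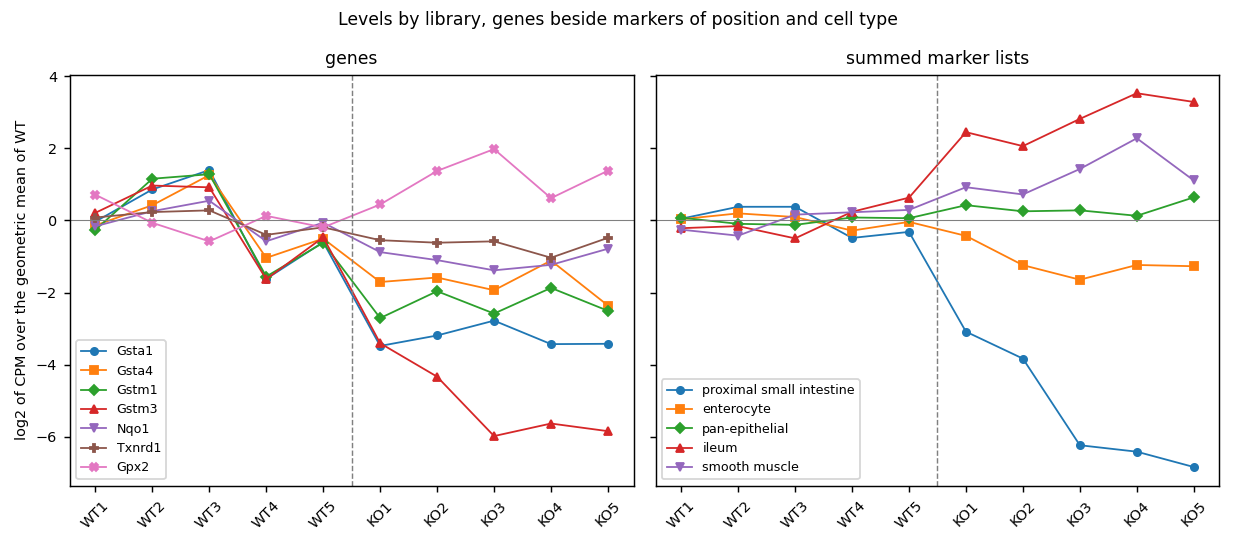
log2 of CPM in each library over the geometric mean of the WT libraries, for 7 of the enzymes (left) and for the summed marker lists of position and cell type (right); the dashed line parts WT from KO, and lines only join the points of a gene or list, since libraries have no order. The 4 alpha and mu transferases are highest in WT replicates 2 and 3, where the proximal sum is 15640 CPM in both, and lowest in KO, where it is at most 1417 CPM.

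Reads of these transferases can be shared with near-identical copies. Of all windows of 50 bases along the exons of *Gsta1*, 90.5% also occur in another gene, chiefly *Gm3776*, *Gsta2* and *Gm10639*, and the shares were 28.8% for *Gstm3*, 18.9% for *Gstm1*, 33.7% for *Gstp1*, 5.97% for *Gpx2* and 0 for the other 5 enzymes. How the counting treated such reads is not given in the sources used here, so the split between copies is uncertain. *Gm3776* was not analysed here, and of the other copies of *Gsta1* *Gm10639* held 12.6 to 92.8 CPM in WT and 1.62 to 5.72 in KO libraries, and *Gsta2* 0.714 to 12.6 and 0.113 to 0.378 CPM. Summed with the copies that were counted, for *Gsta1* only these last 2, an alternative chosen after the data were seen, *Gsta1* had a log2 fold change of -3.61, *Gstp1* with *Gstp2* of -0.52 and *Gpx2* with *Gpx2-ps1* of 1.2, all still called by edgeR. The sums for *Gstm3* (with *Gstm1* and *Gstm6*, -3.78) and *Gstm1* (with *Gstm3*, *Gstm2* and *Gm6665*, -3.40) each hold the other enzyme and are no separate check of either. *Gstm3* made up 62.5% of its summed counts in WT and 27.2% in KO and *Gstm1* 31.2% and 52.8%, whereas *Gsta1* made up 86.9% and 87.9%.

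The sequence upstream of *Gsta1*, *Gstm1* and *Gstm3* is shown because these had the largest changes of the 10 enzymes, all lower in KO. Each stretch is the 100 bases just outside the first annotated base (RefSeq promoters, GRCm38.p6, 5′ to 3′ on the strand of the gene), at chr9:78230556-78230655 for *Gsta1*, chr3:108017974-108018073 for *Gstm1* and chr3:107969284-107969383 for *Gstm3*.
Gsta1: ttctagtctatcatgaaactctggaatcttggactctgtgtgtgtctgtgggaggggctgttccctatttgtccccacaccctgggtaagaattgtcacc
Gstm1: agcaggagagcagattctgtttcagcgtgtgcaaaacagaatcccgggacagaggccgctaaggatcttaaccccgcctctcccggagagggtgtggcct
Gstm3: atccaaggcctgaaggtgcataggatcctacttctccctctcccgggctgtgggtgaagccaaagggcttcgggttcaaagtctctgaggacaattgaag
In all, 3 motifs were searched on both strands of the 250 bases before each RefSeq start, the core of the antioxidant response element (TGACNNNGC, in 10.2% of 32817 mouse promoters), the AP-1 site (TGANTCA, in 6.75%) and the site of NRF2 with a small MAF partner (TGANTCAGC, in 1.02%), whose first 7 letters are those of the AP-1 site. None of the 3 was found in the windows of *Gsta1*, *Gstm1* and *Gstm3*, which says only that these letters are not in these 250 bases. RefSeq promoters were matched for 7 of the 10 enzymes, and *Gsta4*, *Gclc* and *Hmox1* were not matched.

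*Gstp1*, the pi class transferase (ENSMUSG00000060803, chr19:4035407-4037985, minus strand), was lower in most KO libraries. It held 232, 247, 245, 181 and 212 CPM in WT libraries. It held 157, 142, 125, 219 and 164 CPM in KO libraries. Of the 5 KO libraries, 4 were below every WT library, and KO replicate 4 lay within the WT range. By edgeR's test the log2 change was -0.47 ± 0.15 (SE) with an adjusted p = 0.0388. The call was unstable, since it was kept in only 2 of the 10 fits that leave out 1 library, those without KO replicate 4 (adjusted p = 0.00675) and without WT replicate 4 (adjusted p = 0.0269), where edgeR's adjusted p over the 10 ranged from 0.00675 to 0.0872. Scaled to library size only, the change was -0.34 (adjusted p = 0.0982 by edgeR). Its near-identical neighbour *Gstp2* fell from 39.0 ± 10.1 to 21.2 ± 3.40 CPM (SD, n = 5 each), -0.88 ± 0.18 on the log2 scale (SE, adjusted p = 0.00537 by edgeR), and its groups did not overlap.

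The promoters of both pi genes hold the NRF2 and small MAF site, unlike those of *Gsta1*, *Gstm1* and *Gstm3*. It lies 74 to 66 bases before the RefSeq start of *Gstp1* and 89 to 81 bases before that of *Gstp2*. *Gstp1* as annotated in GENCODE begins further out, at chr19:4037985, so nearly all of its site lies inside that gene. The site is in capitals in the 29 bases printed for each, chr19:4037968-4037996 for *Gstp1* and chr19:4042292-4042320 for *Gstp2* (GRCm38.p6, minus strand), and all 29 letters are the same in both.
Gstp1: tccaacgtgtTGAGTCAGCatccggggcg
Gstp2: tccaacgtgtTGAGTCAGCatccggggcg
Such a match is a description of letters and was not tested as a binding site.

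*Gclc* (ENSMUSG00000032350, chr9:77754535-77794485, plus strand) held 65.5, 96.2, 101, 75.8 and 107 CPM in WT libraries. Its KO libraries held 85.5, 65.1, 75.2, 67.1 and 56.1 CPM. The groups overlapped, with 2 of the 5 KO libraries below every WT library. edgeR put KO minus WT at -0.35 ± 0.15 on the log2 scale (SE, adjusted p = 0.101), and it passed without WT replicate 1 (adjusted p = 0.0466) or without KO replicate 1 (adjusted p = 0.0487) among the 10 fits that leave out 1 library. The modifier subunit of the same ligase, *Gclm*, named after its values were seen, fell from 158 ± 19.7 to 84.8 ± 18.1 CPM (SD, n = 5 each), with a log2 change of -0.90 ± 0.15 (SE of edgeR's model, adjusted p = 0.00194). Its 5 KO libraries, at 66.3 to 114 CPM, were all below its WT libraries, at 127 to 177 CPM. Whether the 2 subunits differed in their change was not tested.

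*Nqo1*, which reduces quinones with NADPH or NADH (ENSMUSG00000003849, chr8:107388225-107403206, minus strand), held 44.4, 59.4, 72.6, 33.3 and 47.6 CPM in WT libraries. It held 27.0, 23.2, 19.1, 21.2 and 28.9 CPM in KO libraries, all below the WT range. The means were 51.5 ± 15.04 and 23.9 ± 4.06 CPM (SD, n = 5 each), 2.16 times higher in WT. On the log2 scale KO minus WT was -1.11 ± 0.20 by edgeR (SE, adjusted p = 0.00291), and leaving out any 1 library kept it between -1.25 and -0.96 and called. None of the 3 motifs was in its promoter window.

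*Txnrd1*, the selenoenzyme that reduces cytosolic thioredoxin (ENSMUSG00000020250, chr10:82833951-82897712, plus strand), held 386.5, 429, 443.5, 277 and 320.0 CPM in WT libraries. In KO libraries it held 249.9, 238, 244.5, 178 and 262 CPM. The groups did not overlap, though KO replicate 5 and WT replicate 4 were close. This gave a log2 difference of -0.66 ± 0.15 (SE of edgeR's model, adjusted p = 0.00982), and it stayed called without any 1 library. Of its 3 RefSeq promoters, 1 holds the core of the antioxidant response element, 92 to 84 bases before the start and on the opposite strand, in capitals in this stretch of chr10:82859104-82859132 (GRCm38.p6, plus strand).
Txnrd1: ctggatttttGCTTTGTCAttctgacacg
This start lies inside the gene as annotated, downstream of its first base.

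*Gpx2*, a selenoenzyme that reduces hydroperoxides in gut epithelium (ENSMUSG00000042808, chr12:76792333-76795554, minus strand), was the only 1 of the 10 called higher in KO. It held 347.5, 203, 142, 232 and 186 CPM in WT libraries. It held 288, 549, 836, 325.5 and 552 CPM in KO libraries. In all, 3 KO libraries were above every WT library, and KO replicates 1 and 4 were below WT replicate 1. The means were 222 ± 77.4 and 510.2 ± 220 CPM (SD, n = 5 each), 2.30 times higher in KO. By edgeR's test the log2 change was 1.2 ± 0.31 (SE) with an adjusted p = 0.0158. Without any 1 library it ranged from 0.94 to 1.42, called each time. With the replicate numbers as a block the change of *Gpx2* was 1.16 and no longer called (adjusted p = 0.0667 by edgeR). Within the groups its libraries did not follow the transferases, since WT replicate 3, the highest WT library for *Gsta1*, *Gsta4* and *Gstm1*, was the lowest for *Gpx2*. Because it moved against the 7 lower enzymes, the 100 bases upstream of *Gpx2* (chr12:76795555-76795654, GRCm38.p6, minus strand) are shown, and none of the 3 motifs was in its window of 250 bases.
Gpx2: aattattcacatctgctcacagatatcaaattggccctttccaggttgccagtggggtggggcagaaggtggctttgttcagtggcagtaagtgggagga

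*Hmox1*, the inducible enzyme that breaks down heme (ENSMUSG00000005413, chr8:75093621-75100589, plus strand), had few counts, 36 to 89 a library. Its WT libraries held 2.96, 4.27, 2.86, 3.35 and 2.97 CPM and its KO libraries 3.27, 4.67, 3.56, 3.53 and 1.89 CPM. The WT range lay inside the KO range, with 1 KO library below and 1 above every WT library. edgeR put KO minus WT at 0.04 ± 0.24 on the log2 scale (SE, adjusted p = 0.90). Scaling to pan-epithelial genes turned this value to -0.40 (adjusted p = 0.268 by edgeR). With the score of pan-epithelial markers as a covariate it was 0.92 ± 0.402 (SE, adjusted p = 0.224 by edgeR).

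**Figure D3:**
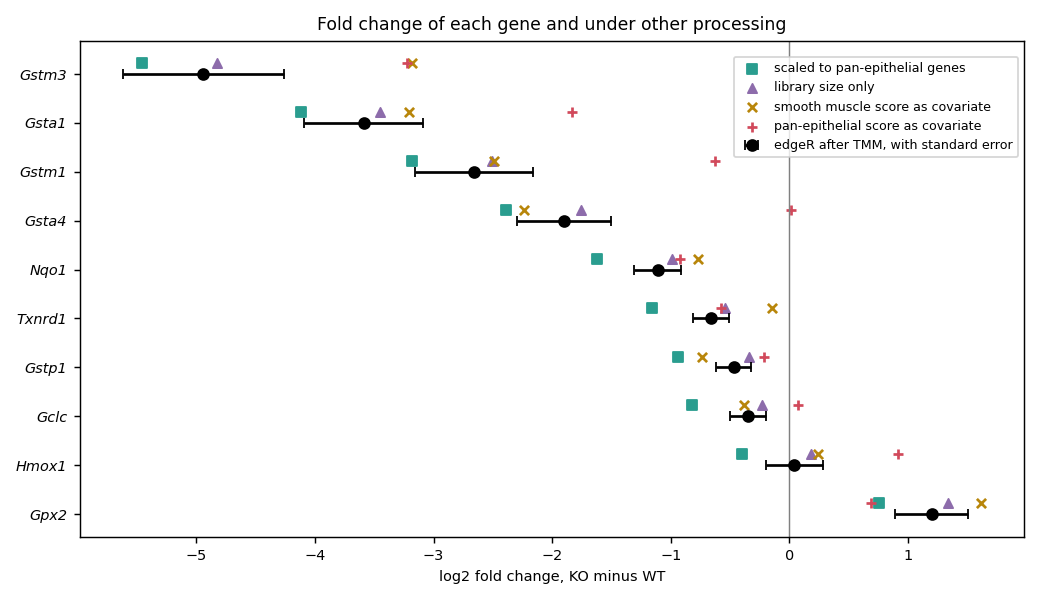
log2 fold change (KO minus WT) of each enzyme from edgeR after TMM scaling (black, with standard error) and under 4 other settings (coloured marks). Values run from -4.94 for *Gstm3* to 1.2 for *Gpx2*, and the pan-epithelial covariate (red plus signs) moves *Gsta4* to 0.01.

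Per kilobase of exon, the levels of the 10 enzymes can be set beside each other. In WT mice the mean CPM per kilobase ran from 507 for *Gstm3* through 313 for *Gsta1*, 222.5 for *Gstm1* and 144 for *Gstp1* to 71.5 for *Gsta4*, 68.8 for *Gpx2*, 52.4 for *Txnrd1*, 33.1 for *Nqo1*, 23.7 for *Gclc* and 1.88 for *Hmox1*. Neighbours in this order overlapped in the range of their 5 libraries, apart from *Gclc* and *Hmox1*. In KO mice the order on the same scale began with *Gpx2* at 158 and *Gstp1* at 104, followed by *Gstm1* at 35.2, *Txnrd1* at 33.1, *Gsta1* at 25.9, *Gsta4* at 19.1, *Gclc* at 18.5, *Gstm3* at 16.5, *Nqo1* at 15.4 and *Hmox1* at 1.93. Here the ranges of *Gstp1* (80.6 to 141.5) and *Gstm1* (26.2 to 46.9) did not overlap, nor did those of *Nqo1* and *Hmox1*. *Gpx2* is annotated as 1 exon block of 3222 bases that spans the whole gene, introns of other transcripts included, which lowers its level per kilobase and bears on its place. *Gstm3* went from the first to the eighth place and *Gpx2* from the sixth to the first.

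**Figure D4:**
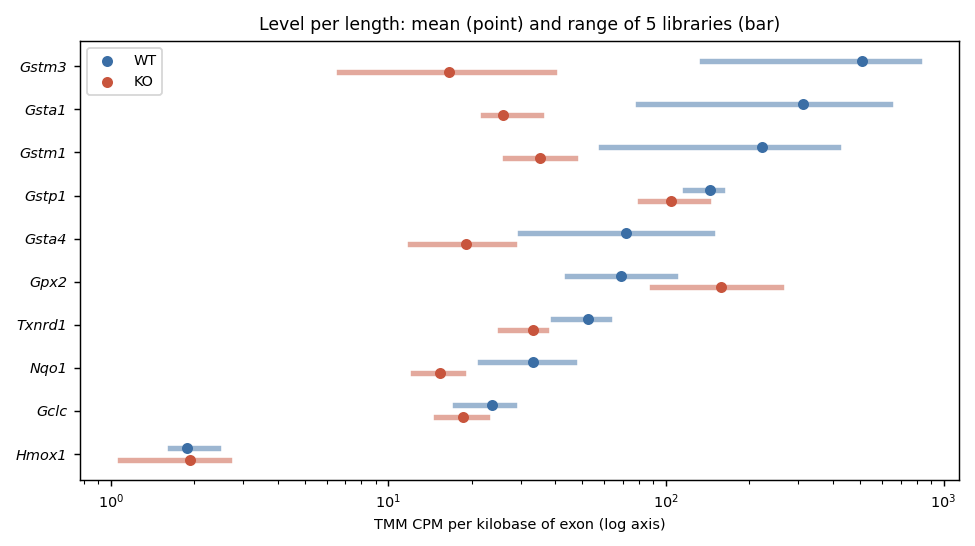
Mean (point) and range over 5 libraries (bar) of CPM per kilobase of exon for each enzyme in WT (blue) and KO (red), on a log axis. *Gstm3* drops from 507 to 16.5 while *Gpx2* goes from 68.8 to 158 and *Hmox1* stays near 1.9 in both.

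Within the groups, some of the enzymes varied together from library to library. As a description, the deviations of log2 CPM from the group means over the 10 libraries correlated most between *Gsta1* and *Gstm1* and between *Gsta4* and *Gstm1* (Pearson r = 0.90 in both), then between *Gsta1* and *Gsta4* (0.82), *Txnrd1* and *Gsta1* (0.79) and *Nqo1* and *Txnrd1* (0.77). *Gstm3* was most like *Nqo1* (0.70), *Gstp1* most like *Gsta4* (0.62), *Gclc* most like *Gstm3* (0.44) and *Hmox1* most like *Gstm3* (0.30). *Gpx2* had no close companion, since its highest value was 0.09, with *Txnrd1*. It ran against several of the enzymes, at -0.58 with *Gclc*, -0.55 with *Gstp1*, -0.49 with *Nqo1* and -0.48 with *Gsta4*. With *Gstm3* the value was -0.45, with *Gstm1* -0.31 and with *Gsta1* -0.09. These points share a library, and near-identical genes share reads.

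The decrease of the transferases extended to other genes of the cytosolic family. Of 21 tested genes listed as cytosolic glutathione transferases 15 were called lower by edgeR, where 13.9% of all genes were. Called higher were 0, also 0 at an unadjusted p under 0.05 by edgeR and 0 by DESeq2. The median log2 fold change of the list was -1.35. With the 5 enzymes above left out, 10 of 16 were lower, with a median of -0.93. Of these 10, *Gsta2*, *Gstm2*, *Gstm6* and *Gstp2* share windows of 50 bases with the enzymes left out. Their counts may hold reads of those enzymes. The summed level of the list was 1209 to 4013 CPM in WT libraries and 715.5 to 938 CPM in KO libraries. By class, 4 of 4 alpha, 6 of 7 mu and 2 of 3 pi genes were called lower. So were 1 of 3 theta, 1 of 1 omega and 1 of 1 kappa genes. The zeta gene was not, nor was *Gstcd*, which is in none of these classes. The kappa gene *Gstk1* was counted in this list, although kappa transferases are not cytosolic. *Gsta2* (log2 fold change -4.36) held only 2 to 7 counts in KO libraries, and without WT replicate 3 its value was -3.48 on the same scale. The omega gene *Gsto1* fell from 450 ± 89.7 to 283 ± 38.3 CPM (SD, n = 5 each; log2 fold change -0.67, adjusted p = 0.0104 by edgeR).

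Another 3 transferases were named after their values were seen. *Gstm6* held 34.4 to 132 CPM in WT and 2.83 to 5.52 CPM in KO libraries (log2 fold change -4.15, adjusted p = 0.000147 by edgeR). *Gstt1* held 50.3 to 120 CPM in WT and 16.03 to 30.02 CPM in KO libraries (log2 fold change -1.86, adjusted p = 0.000749 by edgeR). *Gstm5* was the mu gene that did not pass, with 11.9 ± 1.53 CPM in WT and 12.7 ± 2.09 CPM in KO (SD, n = 5 each), with a log2 change of 0.09 after TMM scaling and -0.37 after scaling to pan-epithelial genes. Among 6 microsomal transferases and relatives 2 were lower, *Mgst2* (-0.83) and *Mgst3* (-0.57 on the log2 scale), where 13.9% of all genes were lower, and 0 higher by edgeR, by its unadjusted p under 0.05 or by DESeq2.

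**Figure D5:**
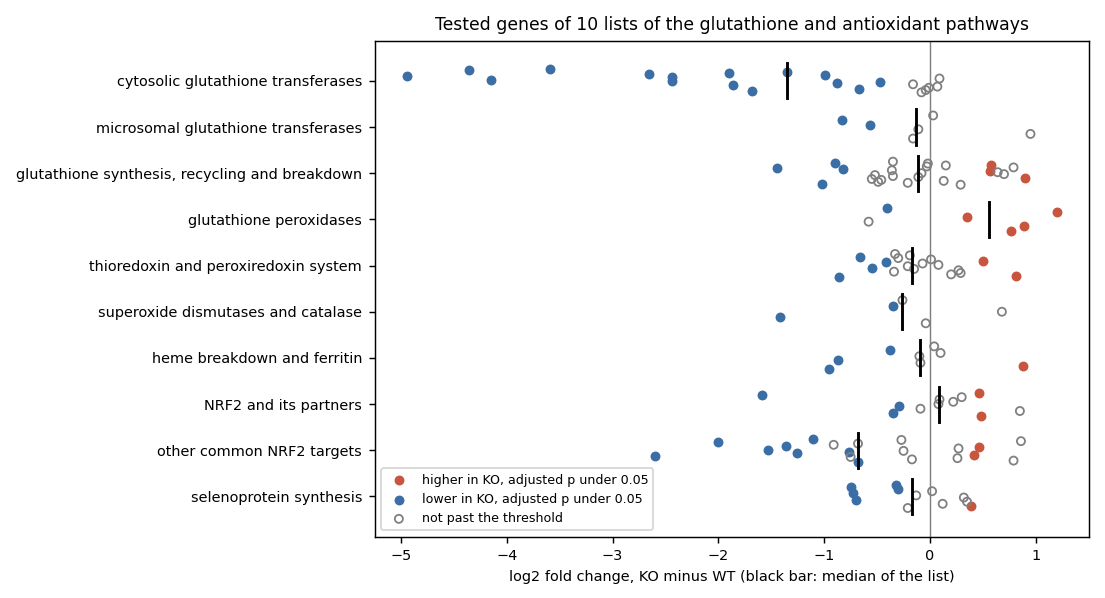
log2 fold change (KO minus WT) of every tested gene in 10 lists of the glutathione and antioxidant pathways; filled points passed edgeR's test (blue lower, red higher), open points did not, and black bars are list medians. The list of cytosolic transferases reaches -4.94 with a median of -1.35, and the glutathione peroxidases have a median of 0.56.

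Of 25 tested genes that make, recycle and break down glutathione, 3 were higher and 4 lower by edgeR and 18 did not pass, with a median log2 fold change of -0.11. These counts are near the shares over all genes, 16% higher and 13.9% lower. The lower genes included *Slc3a2*, the heavy chain of the cystine and other amino acid exchangers (-1.45), and *Idh1*, a cytosolic source of NADPH (-1.02). Glutathione reductase, *Gsr*, was higher, at 159 ± 14.4 CPM in WT and 238 ± 48.3 CPM in KO (SD, n = 5 each; log2 fold change 0.58, adjusted p = 0.013 by edgeR), as was *Dpep1*, a dipeptidase that acts on products of glutathione breakdown (0.90).

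Among 6 tested glutathione peroxidases 4 were higher and 1 lower (16% and 13.9% of all genes), with a median log2 fold change of 0.56. Beside *Gpx2* the higher ones were *Gpx7* (0.89) and *Gpx8* (0.77, but -0.33 with the smooth muscle score as covariate), which act in the endoplasmic reticulum and held at most 13.7 CPM in any library, and the secreted *Gpx3* (0.35), whose value turned to -0.11 after scaling to pan-epithelial genes. The ubiquitous *Gpx1* fell from 262 ± 29.8 to 198 ± 20.6 CPM (SD, n = 5 each; log2 fold change -0.41, adjusted p = 0.0189 by edgeR). *Gpx4*, which reduces lipid hydroperoxides in membranes, had a log2 fold change of -0.58 that did not pass (adjusted p = 0.0759 by edgeR).

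In the thioredoxin and peroxiredoxin system 2 of 18 genes were higher and 4 lower, near the 16% and 13.9% of all genes, with a median of -0.17. Beside *Txnrd1* the lower genes were the peroxiredoxins *Prdx1* (log2 fold change -0.42) and *Prdx5* (-0.55, named after its values were seen) and the methionine sulfoxide reductase *Msra* (-0.86), with *Msrb1* (0.81) and the thioredoxin inhibitor *Txnip* (0.50) as the higher ones. Among the superoxide dismutases, their copper chaperone and catalase 2 of 5 genes were lower and 0 higher by edgeR, with extracellular *Sod3* higher at an unadjusted p under 0.05 and by DESeq2 (edgeR log2 fold change 0.68, adjusted p = 0.0656). Catalase, *Cat*, held 384 to 549 CPM in WT and 91.2 to 277.5 CPM in KO libraries (log2 fold change -1.42, adjusted p = 0.00309 by edgeR), and mitochondrial *Sod2* fell by 0.35 on the log2 scale. Cytosolic *Sod1* had a value of -0.26 (adjusted p = 0.193 by edgeR).

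Around *Hmox1*, 3 of 8 genes of heme breakdown and ferritin were lower and 1 higher, where 13.9% and 16% of all genes were. The constitutive heme oxygenase *Hmox2* fell by 0.38, the ferritin heavy chain *Fth1* by 0.87 and the heme exporter *Flvcr1* by 0.95 on the log2 scale, and the heme transporter *Slc48a1* was higher (0.88). A list of selenoprotein synthesis also held the selenoproteins *Selenop*, *Selenow*, *Selenof*, *Selenok* and *Selenot*. Of its 12 genes, 5 were lower and 1 higher, against the same shares. The lower ones included *Selenop*, the plasma selenium carrier (log2 fold change -0.70), *Sephs2* (-0.75) and *Sepsecs* (-0.73), the enzymes that make selenophosphate and selenocysteine. *Selenok* (0.39) was the higher one and turned to -0.08 after scaling to pan-epithelial genes. *Gpx2* and *Txnrd1*, both selenoenzymes, moved in opposite directions.

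*Nfe2l2*, which encodes NRF2, was lower in KO libraries. It held 397, 370.1, 411, 288 and 335 CPM in WT and 196, 102, 93.5, 95.2 and 111 CPM in KO libraries, without overlap. On the log2 scale KO minus WT was -1.59 ± 0.21 by edgeR (SE, adjusted p = 0.000695). *Keap1*, named after its values were seen, had a log2 fold change of 0.09 (adjusted p = 0.505 by edgeR) after TMM scaling and of -0.40 after scaling to pan-epithelial genes. Of 11 genes of NRF2 and its partners 3 were lower and 2 higher (13.9% and 16% of all genes), among them the ubiquitin ligase scaffold *Cul3* (-0.35), the autophagy receptor *Sqstm1* (0.48) and the related factor *Nfe2l1* (0.46, but -0.01 after scaling to pan-epithelial genes). Of 20 other genes commonly listed as NRF2 targets, *Nqo1* included, 8 were lower and 2 higher (again beside 13.9% and 16%), with a median of -0.68. The export pump for glutathione conjugates *Abcc2* (-2.60) and the carbonyl reductase *Cbr1* (-2.0) were lowest, and the higher genes were *Taldo1* (0.46) and *Abcc1* (0.42), which turned to -0.01 and -0.03 after scaling to pan-epithelial genes.

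Marker sums of epithelium and smooth muscle moved with the genotype. With the pan-epithelial or the smooth muscle score as a covariate, edgeR called 0 of the 10 enzymes (2 and 6 at an unadjusted p under 0.05), and 16 and 17 genes in all. With the smooth muscle score some changes stayed near their size or grew, and their errors grew too, as for *Gsta1* (-3.21 ± 0.983, SE), *Gsta4* (-2.24 ± 0.778), *Gstm1* (-2.49 ± 0.987) and *Gpx2* (1.62 ± 0.648), whereas *Gstm3* was at -3.18, *Nqo1* at -0.77 and *Txnrd1* at -0.15. With the pan-epithelial score *Gsta1* was at -1.83, *Gstm3* at -3.22, *Gstm1* at -0.63, *Gsta4* at 0.01 and *Gpx2* at 0.69, while *Nqo1* at -0.92 and *Txnrd1* at -0.58 stayed near their size. Both sums were higher in every KO than in every WT library, and the fits cannot tell these scores and the genotype apart. Scaled to the pan-epithelial genes instead, which turned the calls over all genes to 706 higher and 7405 lower, 8 enzymes were lower, *Gclc* now among them (log2 fold change -0.82, adjusted p = 0.00504 by edgeR), and *Gpx2* was still higher (0.76, adjusted p = 0.0464).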

How the data were processed

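Total RNA of proximal intestine from 5 WT and 5 KO mice was sequenced (SMARTer mRNA-Seq kit, per the labels). For each library the authors deposited whole-number counts for every Ensembl gene ID, not normalized. The submitters' processing notes name FastQC 0.11.9, Trimmomatic, HISAT2 2.0.4, SAMtools 1.3.1, DESeq2 1.14.1 and the build GRCm38. The tool that counted reads, its annotation and its use of strand were not given in the sources used here.

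Symbols and positions came from GENCODE M21 (GRCm38) and were found for 34490 of 35275 IDs. After filterByExpr (counts of at least 10, total of at least 15) 15610 genes were compared between the groups with edgeR 4.0.16 (quasi-likelihood test after TMM normalization, R 4.3.3), Benjamini-Hochberg adjusted, threshold 0.05. The alternative with DESeq2 used version 1.42.0, and the other fits used edgeR. A standard error is that of the edgeR model, and p-values measure the spread between mice. Levels are CPM after TMM, and CPM per kilobase divides by the union of exon bases. Sequences are from RefSeq.

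The 10 enzymes and all lists were chosen with earlier results of these data known. Named genes were the 10 enzymes and *Slc39a14*, from each pathway list the most abundant gene, the 2 highest and the 2 lowest called genes and all genes of lists of 8 or fewer, from each marker list at most its 3 most abundant genes, and *Gstm5*, *Gstm6*, *Gstt1*, *Gclm*, *Keap1*, *Prdx5*, *Gstp2*, *Gm10639* and *Xist*, chosen after their values were seen. Alternatives were RLE normalization, library size only, robust dispersion, no filter, a filter on mean counts under 10, DESeq2, each library left out, the replicate block, 3 scores as covariates, scaling to pan-epithelial genes, a limit of 2 on the log2 fold change and, added after seeing the data, near-identical copies summed.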

Additional observations from a re-analysis of the deposited data

Results flagged for a closer look

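Of 108 groups of 5 libraries, 2 for each of 54 named genes, 7 had a highest or lowest library farther from the others than Dixon's 95% limit allows, where chance gives about 1 in 20. *Txnrd1* stood at 178 CPM in KO replicate 4, below the other KO libraries, and *Sod1* at 369 CPM and *Gpx8* at 13.7 CPM in the same library were above them. KO replicate 1 was above the other KO libraries for *Slc39a14*, at 160 CPM, and for *Nfe2l2*, at 196 CPM. WT replicate 2 was above the other WT libraries for *Gpx7*, at 5.74 CPM, and below them for *Gpx8*, at 3.25 CPM. Without KO replicate 1 *Slc39a14* had a log2 fold change of -1.57, and *Txnrd1* stayed called without any 1 library.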

How the results depend on the processing

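The 4660 genes called by edgeR were 17 with the smooth muscle score and 16 with the pan-epithelial score as covariate, 8111 when scaled to pan-epithelial genes (706 higher, 7405 lower) and 445 beyond a log2 fold change of 2. The 8 enzymes called (7 lower, 1 higher) were 0 with either covariate, with *Gsta1* at -3.21 and *Gpx2* at 1.62 under the smooth muscle score, and 3, 3 lower and 0 higher, beyond 2. The 15 genes called lower in the list of cytosolic transferases were 0 with either covariate and 7 beyond 2. *Slc39a14* had -0.62 (adjusted p = 0.441 by edgeR) with the smooth muscle and -1.13 (0.214) with the pan-epithelial score. The pan-epithelial covariate turned *Gsta4* to 0.01, *Gclc* to 0.07, *Gsta2* to 0.06, *Gpx4* to 0.20, *Sod1* to 0.19, *Flvcr1* to 0.10 and *Keap1* to -0.05, and the smooth muscle covariate *Gpx8* to -0.33, *Gstm5* to -0.20 and *Selenok* to -0.03. Scaling to pan-epithelial genes turned *Hmox1* to -0.40, *Gpx3* to -0.11, *Nfe2l1* to -0.01, *Keap1* to -0.40, *Taldo1* to -0.01, *Abcc1* to -0.03, *Selenok* to -0.08 and *Gstm5* to -0.37, and moved the median log2 fold change of all genes to -0.44. The cause was not tested. With library size only that median was 0.15, and calls were 3608 higher and 1589 lower against 2491 and 2169 after TMM. Leaving out 1 library gave 3207 to 5507 calls and moved *Hmox1* between -0.11 and 0.20, and 7 of the 8 called enzymes passed each time, *Gstp1* in 2 of 10. The Y-linked score rests on 3 counts. Of the values of 53 single genes under these settings 924 kept direction and side of the threshold, 163 were no longer past it, 11 were newly past it and 20 changed sign.

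Same-numbered libraries did not deviate together (correlations of -0.167 to 0.177). This cannot exclude a pairing by litter or cage, and the labels do not say what the numbers mark. With the replicate block 6 enzymes were called, 6 lower and 0 higher, since *Gstp1* (adjusted p = 0.0904) and *Gpx2* (adjusted p = 0.0667) no longer passed edgeR's test, and 3848 genes in all. *Hmox1* had the fewest counts of the 10 enzymes, 36 to 89 a library.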
